A study of Sus scrofa with 11 samples.

Results

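Iron uptake, storage and export in the liver were followed through 10 genes of iron and heme handling: TF, TFRC, STEAP3, SLC39A14, FTL, NCOA4, HMOX1, HPX, CP and HAMP. The genes were chosen by name for their known roles, at a time when earlier results of these data were known. All 10 were found among the 12505 genes of the pig liver table, of which 10561 could be paired with a symbol. Hepatocytes take up iron bound to transferrin through transferrin receptors and free iron through divalent metal transporters, and store it in ferritin, from which it is released when NCOA4 delivers ferritin to lysosomes. Heme that escapes from red cells is bound by hemopexin, taken up and opened by heme oxygenase, which frees its iron. The liver also sets iron export for the whole body, because it makes hepcidin, the hormone that removes the exporter ferroportin from cell surfaces, and ceruloplasmin, the copper oxidase that readies exported iron for transferrin.

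RNA was measured in 11 libraries of wild type pig liver. The libraries are 2 controls labelled day 0 and 3 each from livers irradiated with 20, 30 or 40 Gy and labelled day 35. The irradiated groups share a day, but against control the dose and the time since irradiation cannot be told apart. Ferroptosis, a cell death that depends on iron, and veno-occlusive disease are named in the series title, and the comparisons ask how iron genes stood at each dose. The labels give hepatocyte as cell type and do not tell whether each library is another animal. The p-values therefore rest on differences among libraries that may be technical. In whole tissue, fewer cells of a type and less RNA per cell cannot be told apart.

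Several libraries resembled others in ways that the dose labels do not give. Over 6519 genes with a mean of at least 5 FPKM, the SD of the log2 ratio was 0.177 for 30Gy-1 and 30Gy-2 and 0.179 for 20Gy-3 and 30Gy-3, and 0.346 to 1.22 for each of the other 53 pairs. No value was identical, and the sampling noise cannot be computed without counts. The mean of 30Gy-1 and 30Gy-2 entered as a single sample, which leaves n = 2 for control and 30 Gy and n = 3 for each other dose. 20Gy-3 and 30Gy-3 carry different doses and were kept apart. The 6 libraries of the lower doses fell into a set of 20Gy-1, 20Gy-3 and 30Gy-3 and a set of 20Gy-2, 30Gy-1 and 30Gy-2, with an SD of up to 0.38 within and at least 0.643 between the sets. 40Gy-1 lay nearest to 20Gy-2 (SD 0.794) and had the lowest summed FPKM, 520839, against up to 949840 in 40Gy-3. It lay farther from 40Gy-2 and 40Gy-3 (SD 1.04 and 1.08) than from control-1 and control-2 (0.936 and 0.965). 40Gy-2 and 40Gy-3 were alike (SD 0.381), so the 40 Gy group holds unlike libraries. None of the 8 hepatocyte markers was at 0 in any library, and they moved apart at 40 Gy. Their sum was 23300 to 29700 FPKM at 40 Gy against 42200 to 67200 in the 8 other libraries, but most of it is albumin, and the 7 others summed to 12500, 20700 and 22700 in 40Gy-1 to 40Gy-3 against 15200 to 24700. ALB, ASGR1 and TTR fell at 40 Gy against the lower doses, and FGB and HNF4A had positive differences that missed the threshold (1.07 and 0.53, adjusted p = 0.144 and 0.251). The 12 macrophage markers summed to 552 to 1593 FPKM, so the libraries also hold RNA of other cells.

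None of the 10 genes passed the test against control at any dose, and 3 passed between 40 Gy and the lower doses: the metal transporter SLC39A14 and the ferritin receptor NCOA4 rose, and the transferrin receptor TFRC fell. Changes were fitted with limma on log2(FPKM + 1) over all genes, where FPKM is the fragment count scaled to transcript length and library total, and called at a Benjamini-Hochberg adjusted p under 0.05. Against control, 0 of 10 were called at 20, 30 and 40 Gy and in the mean of the 3 doses, where 2.54%, 1.12%, 4.65% and 2.89% of the 11644 genes tested were called. With an unadjusted p under 0.05 there were 2, 1, 2 and 0 of the 10 genes, against 19.5%, 12.7%, 22% and 17.7% of all genes, and the lowest adjusted p were 0.192, 0.358, 0.1 and 0.299. At 40 Gy against the mean of 20 and 30 Gy 3 of 10 were called, with 15.3% of all genes called (8.11% rose and 7.21% fell). The median change of the 10 genes in that comparison was 0.37, with a range from -1.94 to 1.46, and the median of all genes was 0.07. Every library was below both controls for SLC39A14, STEAP3, FTL, NCOA4 and HMOX1 at 20 Gy (5 of 10 genes, against 23.2% of all genes). The same held for SLC39A14, FTL and HMOX1 at 30 Gy (3 of 10, against 23.3%), for FTL at 40 Gy (1 of 10, against 17.9%) and for FTL over all 9 irradiated libraries (1 of 10, against 7.86%). NCOA4 was above both controls in every library of 40 Gy (1 of 10, against 19.5%). Every library of 40 Gy was above all of the lower doses for SLC39A14, NCOA4 and HMOX1 (3 of 10, against 13.0%) and below them for TFRC (1 of 10, against 10.8%). All 10 passed the filter on low values, 1 FPKM in at least 2 libraries. Without 40Gy-1, 5 of the 10 genes were called at 40 Gy against the lower doses, where 35.2% of all genes were called. None of the calls held without 20Gy-3 and 30Gy-3, where 30 Gy keeps 1 library in the fit and far fewer of all genes were called too.

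**Figure D1:**
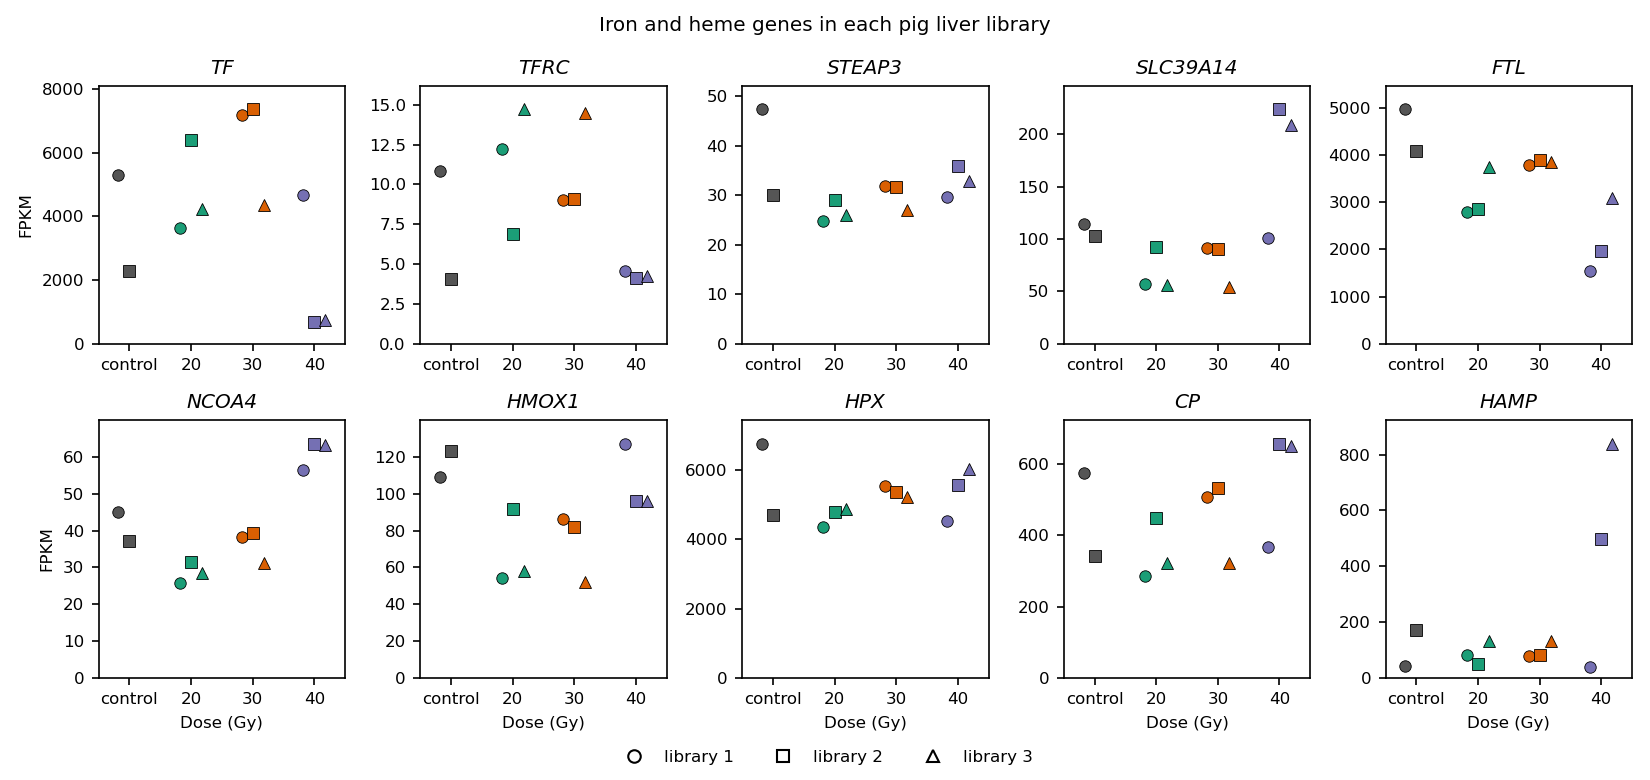
FPKM (linear axis from 0, own scale in each panel) of the 10 genes in each of the 11 libraries, by dose, with circles, squares and triangles for libraries 1, 2 and 3 and colours for the groups. TF and HAMP of 40Gy-2 and 40Gy-3 stand far from those of 40Gy-1, whereas NCOA4 and TFRC of the 3 libraries at 40 Gy lie together.

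**Figure D2:**
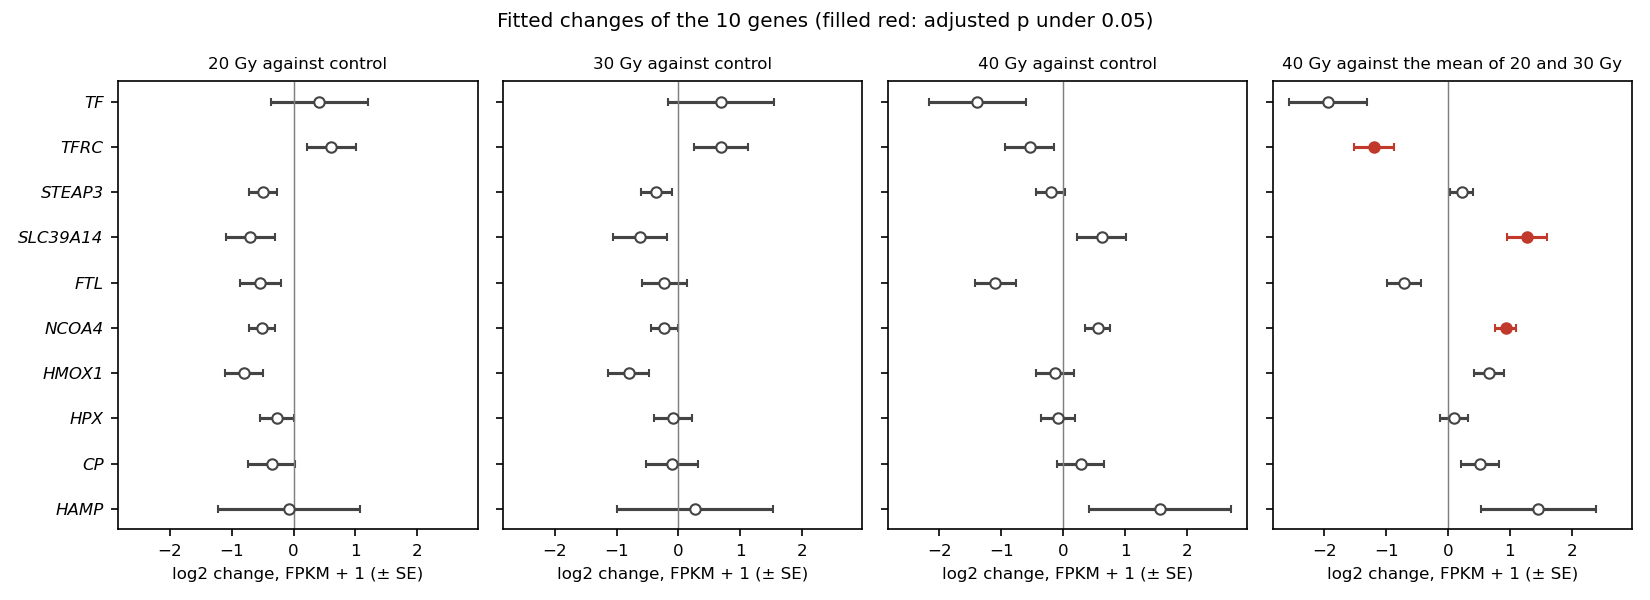
Fitted change of each gene on the log2(FPKM + 1) scale with its SE, in 4 comparisons. Filled red points are SLC39A14, NCOA4 and TFRC at 40 Gy against the lower doses, the calls at an adjusted p under 0.05, and all other points missed it.

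Transferrin, the iron carrier of plasma made by hepatocytes (TF, ENSSSCG00000011640, Sscrofa11.1 chromosome 13, 74862502 to 74907059), was among the 45 genes with the highest level in each group. Its FPKM was 5309 and 2280.4 in control-1 and control-2, 3649.7, 6400.1 and 4238 in 20Gy-1 to 20Gy-3, 7186, 7362 and 4348 in 30Gy-1 to 30Gy-3, and 4666, 689.8 and 729 in 40Gy-1 to 40Gy-3. 40Gy-2 and 40Gy-3 were the lowest of all libraries and 40Gy-1 lay within the range of the lower doses, so the groups overlap. Against the lower doses the log2 difference at 40 Gy was -1.94 (SE 0.633, adjusted p = 0.0672), and against control -1.39 (SE 0.785, adjusted p = 0.336). Without 40Gy-1 both passed, at -2.85 (adjusted p = 0.00104) and -2.29 (adjusted p = 0.0105), and with 30Gy-1 and 30Gy-2 as separate libraries the first had adjusted p = 0.0353, over a range of 0.00104 to 0.253 in all alternatives of that comparison. Of all genes, 35.2% were called against the lower doses and 19.2% against control when 40Gy-1 was left out. Albumin, the other main plasma protein of hepatocytes, was 27000 to 42500 FPKM in control, 20 and 30 Gy and 10800, 7120 and 7050 in 40Gy-1 to 40Gy-3, and its part in the values of TF was not tested.

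The transferrin receptor TFRC, through which cells take up iron-loaded transferrin (ENSSSCG00000011848, chromosome 13, 133976765 to 133997554), had the lowest level of the 10 genes. It was 10.9 and 4.04 FPKM in control, 12.2, 6.87 and 14.7 at 20 Gy, 9.05, 9.11 and 14.5 at 30 Gy, and 4.57, 4.11 and 4.24 at 40 Gy. The 3 libraries at 40 Gy lay below all 6 of the lower doses, control-2 was lower still, and control-1 lay among the lower doses. The lower doses split along the sets of libraries described above, at 12.2 to 14.7 in 20Gy-1, 20Gy-3 and 30Gy-3 and 6.87 to 9.11 in the others. The mean of TFRC was 4.31 ± 0.241 FPKM (SD, n = 3) at 40 Gy, against 7.45 ± 4.82 (n = 2) in control, 11.3 ± 4.02 (n = 3) at 20 Gy and 11.8 ± 3.81 (n = 2) at 30 Gy. TFRC fell by 1.19 on the log2 scale at 40 Gy against the lower doses, 2.29-fold on the FPKM + 1 scale (SE 0.32, adjusted p = 0.0375 in limma). The call was lost in TPM scaling (adjusted p = 0.0579), without 20Gy-3 and 30Gy-3 (0.213), and without 20Gy-1 (0.0809), 20Gy-3 (0.0768), 30Gy-3 (0.125), 40Gy-2 (0.133) or 40Gy-3 (0.111), over a range of 0.012 to 0.213. STEAP3, the reductase that turns ferric into ferrous iron in the endosome after uptake (ENSSSCG00000029304, chromosome 15, 24736556 to 24785376), stayed within a narrow range. Its FPKM was 47.3 and 30.1 in control, 24.8, 28.9 and 25.9 at 20 Gy, 31.8, 31.6 and 27.0 at 30 Gy, and 29.7, 35.9 and 32.8 at 40 Gy. Control-1 was the highest library and the other 10 lay between 24.8 and 35.9. The difference of 40 Gy from the lower doses was 0.22 (95% interval -0.20 to 0.64, adjusted p = 0.429), and from control -0.20 (-0.72 to 0.32, adjusted p = 0.647).

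SLC39A14, also known as ZIP14, brings iron that is not bound to transferrin into hepatocytes and carries zinc and manganese as well (ENSSSCG00000032622, chromosome 14, 6639485 to 6687929). It was 114 and 103 FPKM in control, 56.6, 92.1 and 55.7 at 20 Gy, 91.0, 90.7 and 54.3 at 30 Gy, and 101, 224 and 209 at 40 Gy. All libraries of the lower doses lay below both controls, 40Gy-1 lay just below them, and 40Gy-2 and 40Gy-3 were the highest. The lower doses split along the 2 sets of libraries described above. SLC39A14 was 54.3 to 56.6 in 20Gy-1, 20Gy-3 and 30Gy-3, and 90.7 to 92.1 in 20Gy-2, 30Gy-1 and 30Gy-2. Group means were 109 ± 7.93 FPKM (n = 2) in control, 68.1 ± 20.8 (n = 3), 72.6 ± 25.8 (n = 2) and 178 ± 67.2 (n = 3) at 20, 30 and 40 Gy. At 40 Gy SLC39A14 rose by 1.28 on the log2 scale over the lower doses, 2.43-fold on the FPKM + 1 scale (SE 0.322, adjusted p = 0.0298 in limma). The call was lost without 20Gy-3 and 30Gy-3 (adjusted p = 0.198) and without 20Gy-1 (0.07), 20Gy-3 (0.0681), 30Gy-3 (0.107), 40Gy-2 (0.136) or 40Gy-3 (0.114), over a range of 0.00274 to 0.198. Against control the change was -0.70 at 20 Gy (SE 0.399, adjusted p = 0.363), -0.62 at 30 Gy (SE 0.437, adjusted p = 0.619) and 0.62 at 40 Gy (SE 0.399, adjusted p = 0.397).

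NCOA4, the receptor that carries ferritin to lysosomes so that its iron is freed (ENSSSCG00000010399, chromosome 14, 90505614 to 90531302), separated 40 Gy from all other libraries. It was 45.02 and 37.2 FPKM in control, 25.7, 31.4 and 28.4 at 20 Gy, 38.3, 39.4 and 31.2 at 30 Gy, and 56.4, 63.6 and 63.1 at 40 Gy. The 3 libraries at 40 Gy were the highest of the 11, with 40Gy-1 close to the other 2, and the 3 at 20 Gy lay below both controls. NCOA4 averaged 61.0 ± 4.01 FPKM (n = 3) at 40 Gy, against 41.1 ± 5.51 (n = 2) in control, 28.5 ± 2.83 (n = 3) at 20 Gy and 35.02 ± 5.42 (n = 2) at 30 Gy. It rose by 0.93 on the log2 scale over the lower doses, 1.91-fold (SE 0.163, adjusted p = 0.00836 in limma). Of its 20 alternatives 1 ended the call, that without 20Gy-3 and 30Gy-3 (0.86, adjusted p = 0.0999). Against control the changes were -0.51 at 20 Gy (SE 0.203, adjusted p = 0.207), -0.23 at 30 Gy (SE 0.222, adjusted p = 0.724) and 0.56 at 40 Gy (SE 0.203, adjusted p = 0.148). The gene overlaps the protein-coding gene LOC100157391 in the annotation, and reads of the overlap may be mixed.

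FTL, the ferritin light chain that lines the iron core of ferritin (ENSSSCG00000003153, chromosome 6, 54231121 to 54232756), was lower in every irradiated library than in either control, without passing the test. Its FPKM was 4974 and 4097 in control, 2792, 2852 and 3756 at 20 Gy, 3784, 3901 and 3859 at 30 Gy, and 1543, 1963 and 3095 at 40 Gy. 40Gy-1 and 40Gy-2 were the lowest libraries, and 40Gy-3 lay among those of 20 Gy. The difference from control was -0.54 at 20 Gy (SE 0.335, adjusted p = 0.401), -0.23 at 30 Gy (SE 0.367, adjusted p = 0.845) and -1.10 at 40 Gy (SE 0.335, adjusted p = 0.1), a level 2.14-fold below control on the FPKM + 1 scale. In quantile normalization the difference at 30 Gy turned to 0.07. Against the lower doses 40 Gy differed by -0.71 (SE 0.27, adjusted p = 0.101), which passed in TPM scaling (-0.81, adjusted p = 0.0349) and quantile normalization (-0.94, adjusted p = 0.0237), over a range of 0.0237 to 0.364. Reads of ferritin genes may be split with near-identical copies, which leaves the level of FTL uncertain.

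HMOX1, the inducible heme oxygenase that opens heme and frees its iron (ENSSSCG00000039745, on sequence not placed on a chromosome), was lower in each library of 20 and 30 Gy than in any of control or 40 Gy, again without a call. It was 109 and 123 FPKM in control, 54.5, 91.9 and 58.0 at 20 Gy, 86.2, 81.8 and 51.9 at 30 Gy, and 127, 96.2 and 96.3 at 40 Gy. At 40 Gy 40Gy-1 lay above both controls and the others below, and of the lower doses 20Gy-1, 20Gy-3 and 30Gy-3 were the lowest. The difference from control was -0.80 at 20 Gy (SE 0.305, adjusted p = 0.192), -0.80 at 30 Gy (SE 0.335, adjusted p = 0.358) and -0.13 at 40 Gy (SE 0.305, adjusted p = 0.834). Over the lower doses 40 Gy differed by 0.67 (SE 0.246, adjusted p = 0.0939), which passed without 20Gy-2 (adjusted p = 0.0465, range 0.0465 to 0.408). NRF2, a factor that drives HMOX1 under oxidative stress, also induces 10 other genes tested here. At 40 Gy against the lower doses NQO1, SRXN1 and TXNRD1 rose and 0 fell (8.11% of all genes rose). Against control, where HMOX1 had negative differences, UGDH rose at 20, 30 and 40 Gy, ME1 and SRXN1 rose at 40 Gy, and 0 fell. Of all genes 2.54%, 1.12% and 4.65% were called at these doses, in either direction. The link of these genes to HMOX1 was not tested. Hemopexin, HPX, the plasma protein that binds free heme (ENSSSCG00000014626, chromosome 9, 3288288 to 3297051), was among the 25 most abundant transcripts in each group. It was 6766 and 4714 FPKM in control, 4369 to 4891 at 20 Gy, 5211 to 5529.6 at 30 Gy and 4529.8, 5576 and 6036 at 40 Gy. Control-1 was the highest library and the groups overlapped. HPX differed by 0.10 between 40 Gy and the lower doses (95% interval -0.41 to 0.60, adjusted p = 0.787), and the sign turned in quantile normalization (-0.34).

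Ceruloplasmin, CP, the copper oxidase that turns exported ferrous iron into the ferric form (ENSSSCG00000011700, chromosome 13, 89396713 to 89463540), varied more within doses than between them. Its FPKM was 575 and 341 in control, 286, 448 and 322 at 20 Gy, 508, 533 and 323 at 30 Gy, and 366, 657 and 651 at 40 Gy. 20Gy-1, 20Gy-3 and 30Gy-3 were the lowest, at 286 to 323, and 40Gy-2 and 40Gy-3 the highest. The difference of 40 Gy from the lower doses was 0.52 (95% interval -0.18 to 1.21, adjusted p = 0.272) and from control 0.28 (-0.58 to 1.15, adjusted p = 0.71). CP overlaps its neighbour HPS3, and reads of the overlap may be mixed.

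Hepcidin, HAMP (ENSSSCG00000035436, chromosome 6, 44785863 to 44787303), had the widest range of the 10 genes as a ratio of highest to lowest library, and it ran within the groups. It was 42.7 and 170 FPKM in control, 83.2, 48.0 and 134 at 20 Gy, 79.7, 82.0 and 132 at 30 Gy, and 38.8, 496 and 839 at 40 Gy. 40Gy-1 was the lowest of all 11 libraries and 40Gy-2 and 40Gy-3 were the highest. The difference of 40 Gy from the lower doses was 1.46 (SE 0.926, adjusted p = 0.297) and from control 1.56 (SE 1.15, adjusted p = 0.46). Without 40Gy-1 the same differences were 2.80 (adjusted p = 0.00677) and 2.90 (adjusted p = 0.0209), and in all other alternatives both missed the threshold, with an adjusted p of up to 0.719 and 0.899. Without 40Gy-1, 35.2% of all genes were called against the lower doses and 19.2% against control. Transferrin ran the other way in 40Gy-2 and 40Gy-3, where the highest HAMP stood beside the lowest TF. Control-2, with the higher HAMP of the controls, also had the lower TF (2280.4 against 5309 FPKM).

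Bone morphogenetic protein 6, BMP6, is the signal by which the iron-sensing liver induces hepcidin, and hemojuvelin, HJV, is its co-receptor on hepatocytes. Both were chosen after their values were seen, as was ID1. BMP6 was 14.5 and 35.5 FPKM in control, 44.9, 7.83 and 42.4 at 20 Gy, 7.16, 6.54 and 42.4 at 30 Gy, and 2.68, 73.1 and 62.4 at 40 Gy. The 6 libraries with BMP6 at 35.5 FPKM or more had HAMP at 83.2 to 839, and the 5 with BMP6 at 14.5 or less at 38.8 to 82.0. This boundary was placed after the values were seen and is no test. Its nearest libraries, 20Gy-1 and 30Gy-2, had almost the same HAMP (83.2 and 82.0 FPKM) at a BMP6 of 44.9 and 6.54, and within the lower doses it follows the 2 sets of libraries described above. HJV was 109, 111 and 113 FPKM in 20Gy-2, 30Gy-1 and 30Gy-2, 35.01 to 37.3 in the other libraries of the lower doses, 57.1 and 30.7 in control, and 60.0, 25.7 and 27.8 at 40 Gy. HJV was at most 37.3 in the same 6 libraries. By dose, BMP6 showed no call at 40 Gy against the lower doses (0.24, SE 1.07, adjusted p = 0.894). ID1, a target of BMP signalling, did not follow BMP6: it was 5.58, 5.87 and 5.30 FPKM in 20Gy-1, 20Gy-3 and 30Gy-3, and 23.2 to 66.9 in all others. Plasma proteins of the acute phase, among which hepcidin is counted, were also high in 40Gy-2 and 40Gy-3. ITIH4 was 13300 and 12800 FPKM there, 3220 in 40Gy-1 and 713 to 1390 elsewhere, and the 7 measured acute phase genes summed to 48150 and 49790 FPKM against 8730 to 22930 in the other 9 libraries. Their part in the level of HAMP was not tested.

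**Figure D3:**
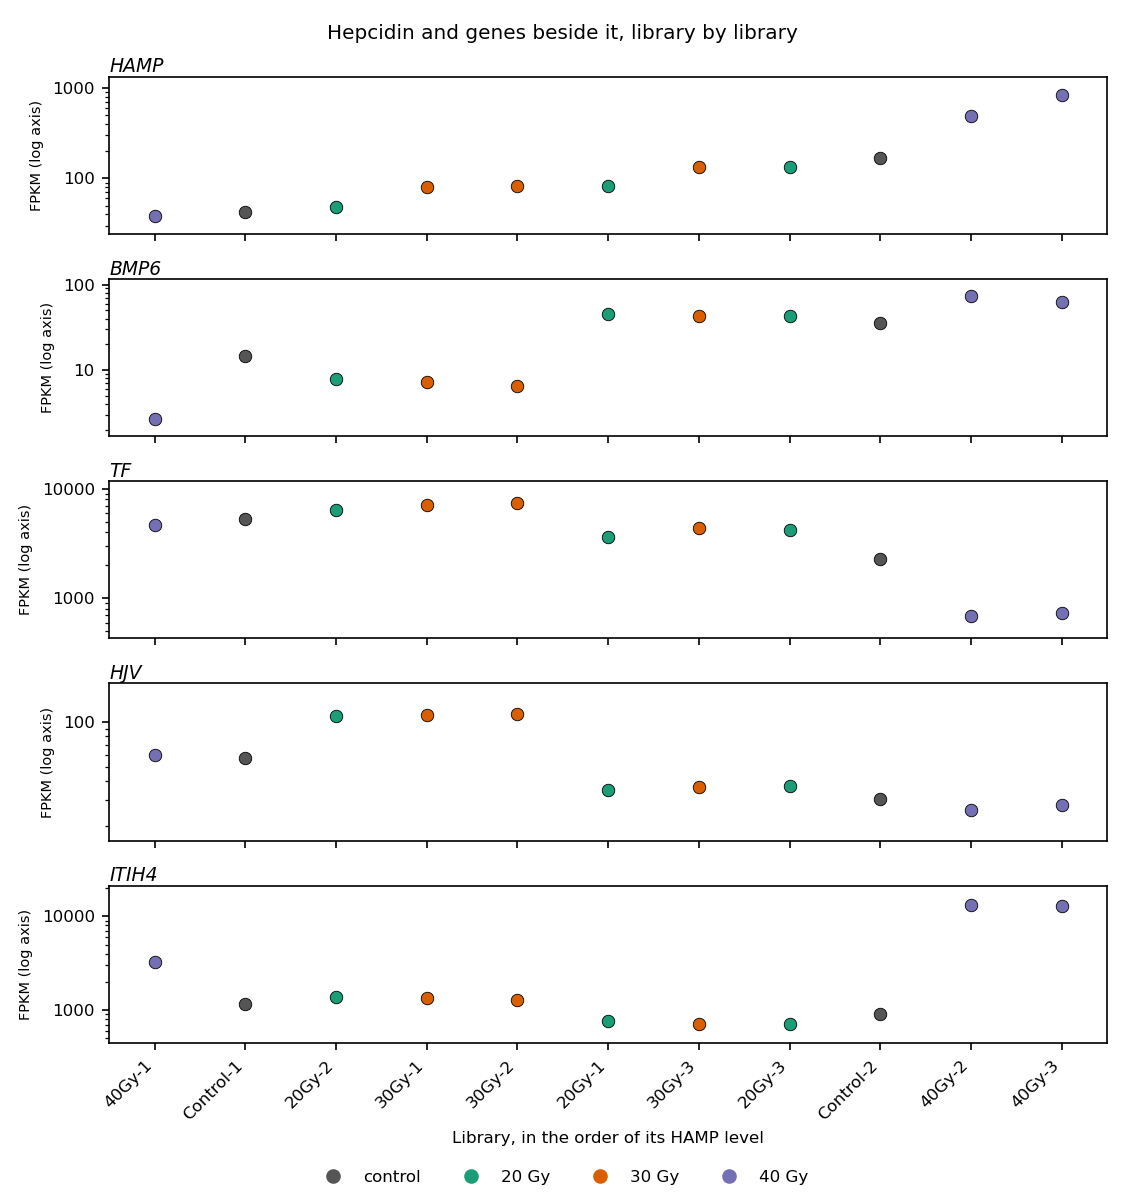
FPKM (log axes) of HAMP, BMP6, TF, HJV and the acute phase gene ITIH4, with the 11 libraries in the order of their HAMP level and colours for dose. The 6 libraries on the right have BMP6 at 35.5 FPKM or more and HJV at 37.3 or less, and the last 2, 40Gy-2 and 40Gy-3, have the lowest TF and the highest ITIH4.

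Around these genes, 75 other genes of iron and heme handling were measured and tested, of 93 listed. None of the 75 was called at 20 Gy, at 30 Gy or in the mean of the doses against control in limma, where 8, 5 and 6 of 75 had an unadjusted p under 0.05, below the shares over all genes given above. At 40 Gy against control 1 fell and 0 rose, and at 40 Gy against the lower doses 2 rose and 4 fell, with a median of 0.18. These 6 of 75 stand against 15.3% called among all genes.

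The single fall against control was in ALAD, the enzyme of the second step of heme synthesis. ALAD was 46.3 and 43.6 FPKM in control, 25.8, 32.1 and 28.0 at 20 Gy, 36.2, 37.6 and 29.6 at 30 Gy, and 22.6, 21.3 and 26.6 at 40 Gy. All irradiated libraries lay below both controls, which held for 3 of the 75 genes and for 7.86% of all genes. ALAD fell by 0.91 at 40 Gy (SE 0.202, adjusted p = 0.0378 in limma). The call was lost in TPM scaling (adjusted p = 0.157), without either control, 20Gy-1, 20Gy-3, 30Gy-3, 40Gy-2 or 40Gy-3, and without 20Gy-3 and 30Gy-3, over a range of 0.0182 to 0.204. Of the 9 genes of heme synthesis no other was called, and 4.65% of all genes were called at 40 Gy against control. ALAS1, which sets the rate of heme synthesis in the liver, was 100.5 and 176 FPKM in control, 483, 464 and 449 in 20Gy-2, 30Gy-1 and 30Gy-2, 198 to 201 in the other libraries of the lower doses, and 118, 300 and 286 at 40 Gy, with no call at 40 Gy against the lower doses (-0.39, adjusted p = 0.582).

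Heme and hemoglobin clearance had 1 riser and 3 fallers among 11 genes at 40 Gy against the lower doses, where 15.3% of all genes were called. CD163, the macrophage receptor for hemoglobin bound to haptoglobin, was 47.3 and 34.5 FPKM in control, 9.50, 38.9 and 9.58 at 20 Gy, 43.2, 41.4 and 9.95 at 30 Gy, and 76.3, 74.4 and 72.5 at 40 Gy. The libraries at 40 Gy were the highest and differed little, whereas those of the lower doses fell into levels near 10 and near 40, and the rise was 1.996 (SE 0.531, adjusted p = 0.0367, range 0.011 to 0.186). The 12 macrophage markers, of which CD163 is 1, had 3 risers in this comparison (8.11% of all genes rose), and their sum was 937 to 1593 FPKM at 40 Gy and 552 to 1074 at the lower doses. The part of macrophage RNA in the rise was not tested.

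FLVCR2, a membrane transporter related to the heme exporter FLVCR1, fell by 1.17 (SE 0.183, adjusted p = 0.00532). It was 16.2 and 18.9 FPKM in control, 21.1 to 30.5 at the lower doses and 13.3, 10.7 and 8.39 at 40 Gy, so the lower doses lay above control and 40 Gy below it. BLVRB, biliverdin reductase B, fell by 0.98 (SE 0.275, adjusted p = 0.0436 in limma), from 270 to 452 FPKM at the lower doses to 115, 180 and 253 at 40 Gy. Control BLVRB was 209 and 149 FPKM, so 40 Gy stood around control and the lower doses above it. SLC46A1, a folate transporter that has also been described as a heme carrier, fell by 0.77 (SE 0.193, adjusted p = 0.0298), from 22.1 to 31.1 FPKM to 15.1, 14.9 and 14.4, with 32.6 and 19.0 in control. In all 3 genes the libraries at 40 Gy lay below those of the lower doses, which held for 4 of the 11 genes in all and for 10.8% of all genes.

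Of 22 regulators of hepcidin 1 was called at 40 Gy against the lower doses, a smaller share than the 15.3% called among all genes. TMPRSS6, the protease that cuts hemojuvelin and so holds hepcidin down, fell by 1.03 (SE 0.287, adjusted p = 0.042, range 0.00296 to 0.17). It was 86.8 and 51.0 FPKM in control, 72.6 to 90.0 at the lower doses and 62.0, 33.4 and 27.2 at 40 Gy, with the lowest values in 40Gy-2 and 40Gy-3. Of 6 other uptake genes 1 was called, again beside 15.3% of all genes. CYBRD1, a ferric reductase, rose by 0.53 (SE 0.154, adjusted p = 0.0479 in limma). It was 5.34, 3.60 and 3.84 FPKM at 40 Gy, 2.21 to 2.86 at the lower doses, and 3.46 and 3.19 in control. The second transferrin receptor of hepatocytes, TFR2, which senses iron-loaded transferrin, was 237 to 333 FPKM at the lower doses and 322, 548 and 410 at 40 Gy (0.65, SE 0.225, adjusted p = 0.0805). The call of CYBRD1 was lost in 15 of 20 alternatives (adjusted p of up to 0.291), among them no filter, quantile, upper quartile and TPM scaling. In TPM scaling the calls of CD163, SLC46A1 and TMPRSS6 were lost too (adjusted p from 0.0639 to 0.125). Those of CD163, BLVRB and CYBRD1 were lost without either control, where the changes stayed at 1.996, -0.981 and 0.53. Leaving out 20Gy-2 ended the calls of BLVRB, TMPRSS6 and CYBRD1, and leaving out 40Gy-3 those of CD163, SLC46A1, TMPRSS6 and CYBRD1. The calls of CD163, BLVRB, SLC46A1, TMPRSS6 and CYBRD1 were each lost without 20Gy-1, 20Gy-3, 30Gy-3 or 40Gy-2, and those of all 6 genes were lost without both 20Gy-3 and 30Gy-3 (adjusted p from 0.0726 for FLVCR2 to 0.199 for CYBRD1).

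No gene of iron export, storage and chaperones (5 tested), iron sensing (6) or mitochondrial iron and iron-sulfur clusters (16) was called in any comparison. With an unadjusted p under 0.05 there were 2 of 5, 3 of 6 and 2 of 16 at 40 Gy against the lower doses, against 33.3% of all genes. Ferroportin, SLC40A1, the iron exporter that hepcidin removes, was 62.3 and 37.5 FPKM in control, 37.3 to 48.6 at the lower doses and 27.2, 45.3 and 44.3 at 40 Gy (-0.19, SE 0.234, adjusted p = 0.606). Of the iron regulatory proteins, which bind the messages of TFRC and ferritin when iron is scarce, ACO1 was 34.0 to 58.9 FPKM at the lower doses and 53.9, 95.02 and 59.4 at 40 Gy (0.64, SE 0.239, adjusted p = 0.0992). IREB2 was 12.9 and 11.14 FPKM in 40Gy-2 and 40Gy-3 and 4.81 to 6.83 in the other 9 libraries (0.48, SE 0.267, adjusted p = 0.238). Both differences passed without 40Gy-1, with an adjusted p of 0.0385 and 0.00312 (ranges 0.0385 to 0.357 and 0.00312 to 0.65). In that fit without 40Gy-1, 35.2% of all genes were called against the lower doses. FBXL5, the iron-sensing subunit that marks IREB2 for breakdown, was 25.3 to 32.5 FPKM at the lower doses and 18.7, 27.8 and 25.8 at 40 Gy (-0.27, SE 0.211, adjusted p = 0.395).

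**Figure D4:**
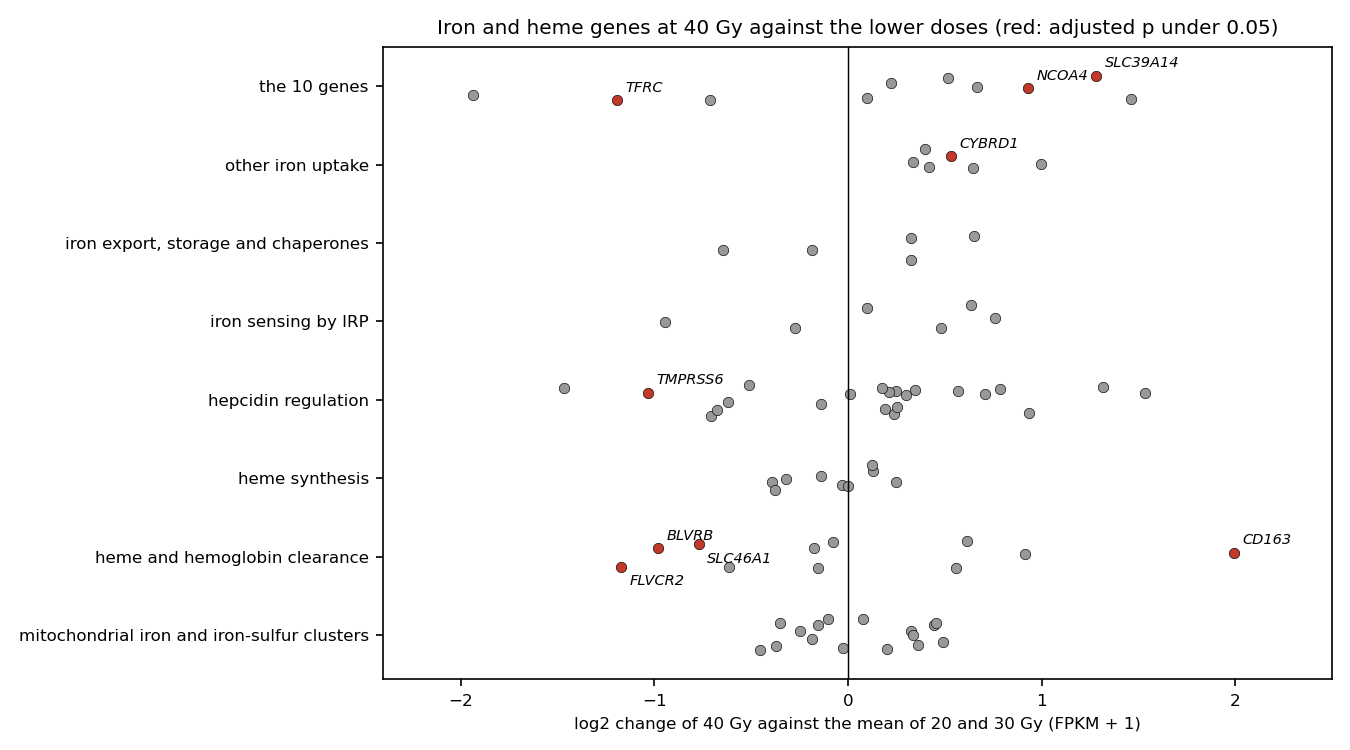
Change at 40 Gy against the mean of 20 and 30 Gy on the log2(FPKM + 1) scale for the 10 genes and 75 others in 7 lists, 1 point a gene (vertical scatter within a row has no meaning). Red points with names passed an adjusted p of 0.05: 3 of the 10 genes and 6 of the 75 others.

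Erythroid transcripts differed between libraries, also within control. The 4 erythroid genes in the table summed to 11.7 to 55.4 FPKM at 40 Gy, 59.4 to 342 at the lower doses, and 109 and 833 in control-2 and control-1. Of these 4 genes 2 were at 0 in 40Gy-2 and 1 in control-2, and HBB, a hemoglobin gene, made up nearly all of each sum. HBB was not called, and 1 of the 4 genes was. HBM, at most 0.94 FPKM at 40 Gy, fell there against control and against the lower doses (adjusted p = 0.025 and 0.0201 in limma). Of all genes 4.65% and 15.3% were called in these comparisons. The part of HBB in the levels of heme genes was not tested.

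The genes whose levels ran most like those of the 3 called genes over the 10 libraries of the fit were found by Pearson correlation, given as a description since the libraries fall into sets. They were FGD6 (0.99), PLS3 (0.98) and PM20D2 (0.97) for TFRC. For SLC39A14 they were DESI1 (0.99), GSPT1 (0.99) and PSMC1 (0.99), and for NCOA4 RWDD2A (0.98), CAP1 (0.98) and EIF1AX (0.98).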

How the data were processed

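The authors deposited 1 table of FPKM with a column for each of 11 libraries, per the file headers. The submitters' processing notes name HISAT2, Cufflinks and HTSeq and the builds Sscrofa11.1 and mm10, without roles. For annotation, filters and strand the sources used here give nothing. The depth of each library is unknown, so no counting interval is given. Of 12505 gene IDs 10561 matched a symbol in a table of gene names. Coordinates are those of RefSeq genes on Sscrofa11.1, matched by symbol.

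All fold changes are on the log2(FPKM + 1) scale, which shrinks those of low genes. The 11644 genes that reached 1 FPKM in 2 or more libraries were fitted in limma 3.58.1 (R 4.3.3) with 4 group means, a variance trend (eBayes) and residual degrees of freedom of 6, after 30Gy-1 and 30Gy-2 had been averaged on the log scale. The SD beside a mean treats that pair as 1 value. Tests were two-sided with Benjamini-Hochberg adjustment over all genes. The fit was run on simulated data with independent errors for each gene and library. The simulation lacked the sets of alike libraries, so it does not test the p-values under them. Alternatives changed the pseudocount (0.1), the filter, the scaling (TPM, quantile, upper quartile), the variance trend, the handling of both near-identical pairs and the replicate block, and left out each library.

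The 10 genes and the lists were chosen with earlier results of these data known. All 10 genes are named, with the called genes of the iron and heme lists and 8 regulators and receptors whatever their result, some of them called. For each called gene of the 10 the 3 most correlated genes are named. Of the marker, acute phase and NRF2 lists only some genes are named, called or not. BMP6, HJV and ID1 were added for their values, and ALB, ITIH4 and HBB as markers. Of the listed genes, 18 were not analysed here.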

Additional observations from a re-analysis of the deposited data

How the results depend on the processing

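Of 43 gene values with 20 alternatives each, 760 of 860 values kept their direction and side of the threshold, 71 lost a call, 15 gained one and 14 changed sign. All 71 losses fall on the values called in the main fit, since only a call can be lost. Values without a call count as kept while they stay uncalled with the same sign. The 760 therefore do not measure how stable the calls were. The genes called numbered 296 at 20 Gy, 130 at 30 Gy, 541 at 40 Gy and 336 in the mean of the doses against control, and 1783 at 40 Gy against the lower doses. In the same order they were 141, 61, 150, 98 and 953 in TPM scaling and 59, 8, 123, 42 and 202 without 20Gy-3 and 30Gy-3, where 30 Gy has 1 library that is assumed to vary like the others. With 30Gy-1 and 30Gy-2 separate the first 4 were 492, 353, 861 and 548. Leaving out single libraries gave 35 to 1167, 14 to 522, 66 to 2219, 19 to 1046 and 431 to 4059, with the highest counts without 40Gy-1. TPM scaling moved the median change of all genes at 20 Gy from -0.03 to 0.18 and in the mean of the doses from 0.01 to 0.14, and the share of risers among calls from 48.6% to 65.2% at 20 Gy, 39.9% to 64.0% at 40 Gy and 40.8% to 60.2% in the mean. Upper quartile scaling moved the share at 40 Gy against the lower doses from 52.9% to 44.0%.

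Of the 10 genes, those called at 40 Gy against the lower doses numbered 3, and 1 to 5 with single libraries left out. Against control at 40 Gy they were 0, and 0 to 2 with single libraries left out. The 5 and the 2 were without 40Gy-1, where 35.2% and 19.2% of all genes were called. Replicate numbers gave no clear pairing: of 15 same-numbered pairs the correlations ran from -0.616 to 0.645, and 5 of 11 libraries correlated best with their own number. The correlations used deviations from means of small groups, which depend on each other, so pairing is neither shown nor excluded. The replicate block was fitted with 30Gy-1 and 30Gy-2 separate, and lowered the calls at 30 Gy from 353 to 244. At 40 Gy against control it called 1 of the 10 genes, FTL (adjusted p = 0.0464, and 0.0586 with the pair separate and no block).

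Signs turned for HPX at 40 Gy against control (0.017 in TPM scaling, -0.341 to 0.18 with single libraries left out) and against the lower doses (-0.34, quantile), HMOX1 at 40 Gy (0.12, quantile) and FTL at 30 Gy (0.066, quantile). They also turned with 1 library left out, over ranges at 40 Gy against control of -0.093 to 0.657 for CP, -0.520 to 0.115 for STEAP3 and -1.16 to 0.074 for TFRC. Against the lower doses the ranges were -0.688 to 0.042 for ALAS1, -0.312 to 0.047 for SLC40A1 and -0.52 to 1.645 for BMP6. The cause was not tested.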
